A study of Triticum aestivum with 24 samples.

Results

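The sucrose transporter genes SUT1D (sequence AF408845) and SUT2D (sequence KJ812205) were taken by name from the table of wheat genes and are 2 of its 26 genes. Both had a value in all 12 tissue samples. Flag leaves and stem tissue between the first and the second internode were collected at 14 days past anthesis (DPA) from field-grown spring wheat, either Fortuna with the tall wild-type allele *Rht-B1a* or a near isogenic line of Fortuna homozygous for the semi-dwarfing allele *Rht-B1b*. There were 3 tissue samples per line and tissue, all untreated apart from irrigation, which forms the groups leaf *Rht-B1a*, leaf *Rht-B1b*, stem *Rht-B1a* and stem *Rht-B1b*. Each allele is represented by 1 line made by backcrossing, with the semi-dwarf cultivar Hi-Line as the donor, so any other donor segment that the *Rht-B1b* line kept cannot be told apart from the allele. The methods describe a replicate both as a composite of plants of a row and as a leaf and internode of a single plant, so the spread between samples may include more than 1 kind of variation. Values are read numbers relative to transcript length and to all mapped reads of the sample (RPKM), which the authors scaled so that actin is equal at 1432.5 in every sample. Read counts and depth are unknown, and the spread between replicates is the only measure of error.

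Sucrose is the main sugar exported from wheat leaves. It is loaded into the phloem of source leaves by proton-coupled sucrose transporters (SUTs), carried through the stem and unloaded in the growing grain. Wheat SUT1 is a plasma membrane symporter found in sieve elements, and it serves loading in leaves and retrieval of leaked sucrose along the path. The barley SUT2 protein resides in the tonoplast, the membrane of the vacuole, where it is associated with release of stored sucrose. The letter D names the copy of the D genome of hexaploid wheat. The copies of the A and B genomes are near identical, and reads that they share with the D copy over the matched length may have been counted for it. The values of both genes are uncertain to that extent.

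SUT1D was far more abundant in flag leaves than in stems, in both lines. In *Rht-B1a* leaves it had 16191, 11798 and 11596 RPKM in pairs 1, 2 and 3 of the tissue samples, and in *Rht-B1b* leaves 18250, 17015 and 14618 RPKM. In *Rht-B1a* stems it had 943, 1265 and 714 RPKM, and in *Rht-B1b* stems 952, 944 and 764 RPKM. The lowest leaf sample was 9.16 times the highest stem sample, so the tissues did not overlap. The mean was 13195 ± 2597 RPKM (SD, n = 3) in *Rht-B1a* leaves and 974 ± 277 RPKM (SD, n = 3) in *Rht-B1a* stems, a 13.5-fold difference. In *Rht-B1b* it was 16628 ± 1847 RPKM (SD, n = 3) in leaves and 887 ± 106 RPKM (SD, n = 3) in stems, an 18.7-fold difference.

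The level of SUT2D was low in all groups and differed little between the tissues. In *Rht-B1a* leaves it had 859, 655 and 662 RPKM in pairs 1, 2 and 3, and in *Rht-B1b* leaves 799.6, 631 and 628 RPKM. In *Rht-B1a* stems it had 623, 537 and 518 RPKM, and in *Rht-B1b* stems 549, 601 and 589 RPKM. All 6 leaf samples lay above all 6 stem samples, but the lowest leaf sample was only 1.01 times the highest stem sample. The mean over both lines was 706 ± 98.3 RPKM in leaves (SD, n = 6) and 569.5 ± 40.9 RPKM in stems (SD, n = 6), a 1.24-fold difference.

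**Figure D1:**
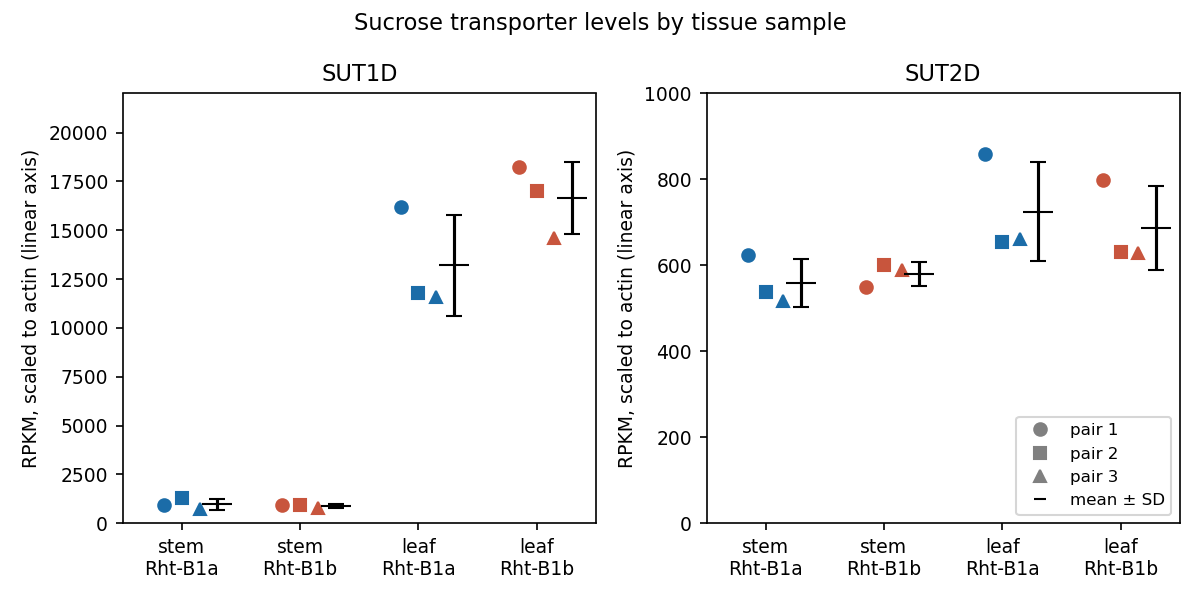
RPKM scaled to actin of SUT1D and SUT2D (linear axes from 0) in each tissue sample, by tissue and line. Points are samples, with 1 symbol per pair, and bars are the mean ± SD of 3 samples. SUT1D lies at 714 to 1265 RPKM in stems and at 11596 to 18250 RPKM in leaves, while SUT2D lies at 518 to 623 RPKM in stems and at 628 to 859 RPKM in leaves.

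The tissue difference was tested with limma on log2(RPKM + 1) over all 12 samples and the 25 genes other than actin, two-sided, with Benjamini-Hochberg adjustment over the 25 genes and a threshold of 0.05. Averaged over both lines, SUT1D was higher in leaves by 4.00 on the log2 scale (standard error 0.18, 95% interval 3.62 to 4.38, adjusted p = 1.28e-16 from limma). Within a line the log2 difference of SUT1D was 3.78 in *Rht-B1a* (standard error 0.26, adjusted p = 9.90e-13 from limma) and 4.23 in *Rht-B1b* (standard error 0.26, adjusted p = 2.34e-13 from limma). Of the 25 genes 52.0% passed as higher in leaves of *Rht-B1a* and 44.0% in leaves of *Rht-B1b*. Averaged over both lines, SUT1D passed under all 18 alternatives, with a log2 difference of 3.49 to 4.11. Most of these left out 1 sample, and the others changed the processing. Scaling to SUT2D, 1 of the latter, was chosen after the data had been seen. The log2 difference of SUT2D was 0.30 (standard error 0.17, 95% interval -0.05 to 0.65, adjusted p = 0.112 from limma) and did not pass. It passed with a pseudocount of 10 (adjusted p = 0.0372 from limma) or 100 RPKM (adjusted p = 0.0214 from limma). An exact permutation test of tissue labels within each line gave p = 0.005 for both genes, which is the smallest p of that design. Fewer cells of a type that expresses a gene and less RNA of it per cell cannot be told apart in such tissue samples, and the table holds no marker of phloem.

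Large tissue differences were common among these genes, which were selected by the study. Of the 25 genes, 52.0% were higher in leaves and 24.0% were lower, and for 40.0% all leaf samples lay above all stem samples. SUT1D had the second largest log2 difference of the 25, and SUT2D the 15th. The median log2 difference over all 25 genes was 0.43. Another standard was the geometric mean of 19 genes, all but the RuBisCO subunit genes, the *Rht-B1* gene and the transporters. Actin was among the 19. With this standard the median over 26 genes, actin included, was 0.059, and with the median gene it was -0.14. The small difference of SUT2D followed that scaling and was -0.0075 (adjusted p = 0.957 from limma) and -0.21 (adjusted p = 0.107 from limma), so its direction depends on the gene used as the standard. The level of SUT1D was the 7th highest of 26 genes in each leaf sample and the 15th to 19th in stems, while SUT2D was 16th to 20th in leaves and 20th to 22nd in stems.

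**Figure D2:**
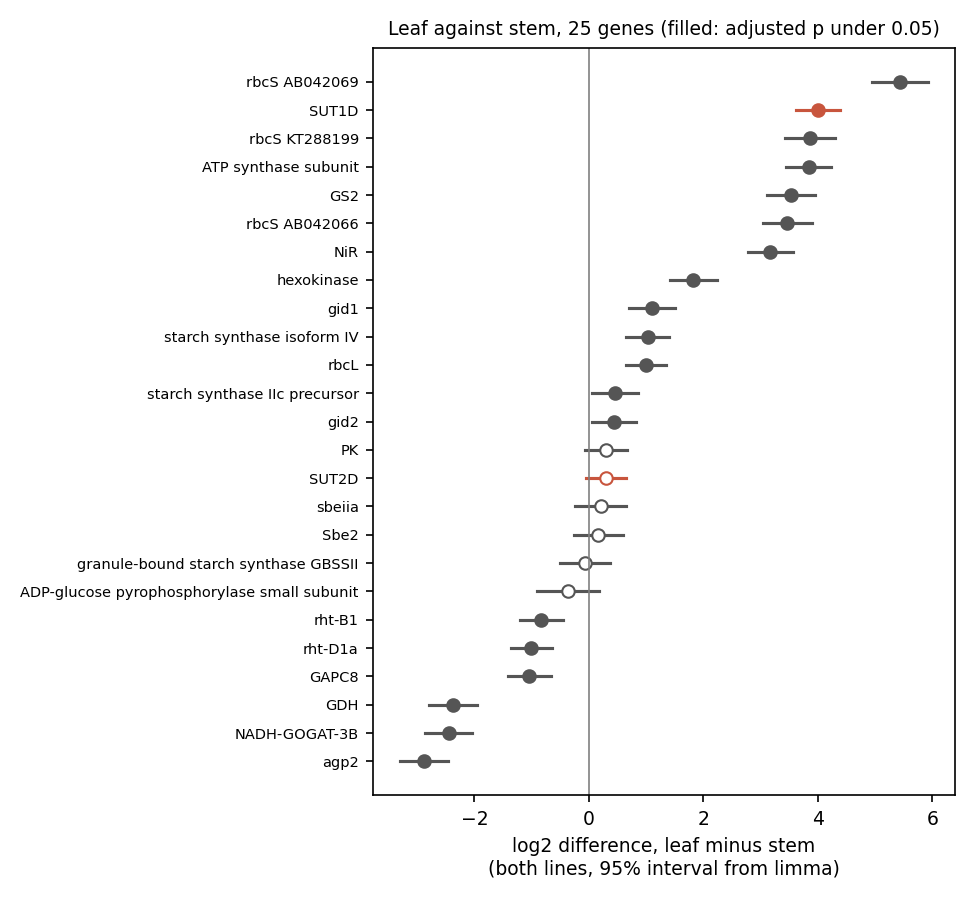
Log2 difference of leaf minus stem over both lines (x axis) for each of 25 genes, with 95% intervals from limma. Filled points have an adjusted p under 0.05, and the sucrose transporters are drawn in red. SUT1D stands at 4.00, beside genes of photosynthesis, and SUT2D at 0.30 with an interval that includes 0.

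The small subunit gene rbcS of RuBisCO, the carbon fixing enzyme, was used as a check of the tissue labels. Its 3 sequences were 11.4, 40.1 and 14.7 times as abundant in leaves as in stems, and none had a stem sample above a leaf sample. Likeness to the transporters was measured as the root-mean-square difference of log2 profiles over the 12 samples, each centred on its mean. The genes most like SUT1D were an ATP synthase subunit (0.37), GS2 (0.45), the glutamine synthetase of the chloroplast, and the rbcS sequence AB042066 (0.46). Their leaf to stem ratios were 14.3 for the ATP synthase subunit, 11.7 for GS2 and 11.4 for rbcS. The genes most like SUT2D were the gene listed as PK (0.23) and the starch branching enzyme genes sbeiia (0.29) and Sbe2 (0.30), none of which passed in the tissue comparison averaged over both lines. In *Rht-B1a* alone PK was higher in leaves (log2 difference 0.59, adjusted p = 0.0372 from limma).

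Among 9 genes that use or store the carbon that SUTs move, 3 were higher in leaves, 2 were lower and 4 did not pass. Their median log2 difference was 0.17, against 0.43 for all 25 genes. The gene agp2, for the large subunit of ADP-glucose pyrophosphorylase in starch synthesis, was lower in leaves (log2 difference -2.88, standard error 0.20, adjusted p = 6.68e-13 from limma), opposite to SUT1D. GAPC8, a glyceraldehyde-3-phosphate dehydrogenase gene of glycolysis, was also lower (log2 difference -1.04, adjusted p = 1.25e-05 from limma). The hexokinase gene, whose enzyme phosphorylates hexoses, was higher (log2 difference 1.82, adjusted p = 4.86e-09 from limma), as was starch synthase isoform IV (log2 difference 1.03, adjusted p = 1.32e-05 from limma).

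The ratio of SUT1D to SUT2D within a sample does not depend on the scaling to actin, because both values carry the same factor. In *Rht-B1a* leaves it was 18.9, 18.0 and 17.5 in pairs 1, 2 and 3, and in *Rht-B1b* leaves 22.8, 26.9 and 23.3. In *Rht-B1a* stems it was 1.51, 2.35 and 1.38, and in *Rht-B1b* stems 1.73, 1.57 and 1.30. SUT1D was therefore above SUT2D in every sample of both tissues, by a geometric mean of 21.0-fold in leaves and 1.61-fold in stems. An exact sign-flip permutation test gave p = 0.03125 in each tissue (n = 6), the smallest p that 6 samples allow. The test covers only the spread over samples. It cannot account for reads of the A and B copies counted for either gene, which could shift all samples alike. The mean log2 ratio was 3.70 higher in leaves than in stems, a 13.0-fold difference (exact permutation test within lines, two-sided, p = 0.005, n = 12). The difference in the log2 ratio was 3.60 to 3.82 under 14 alternatives.

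**Figure D3:**
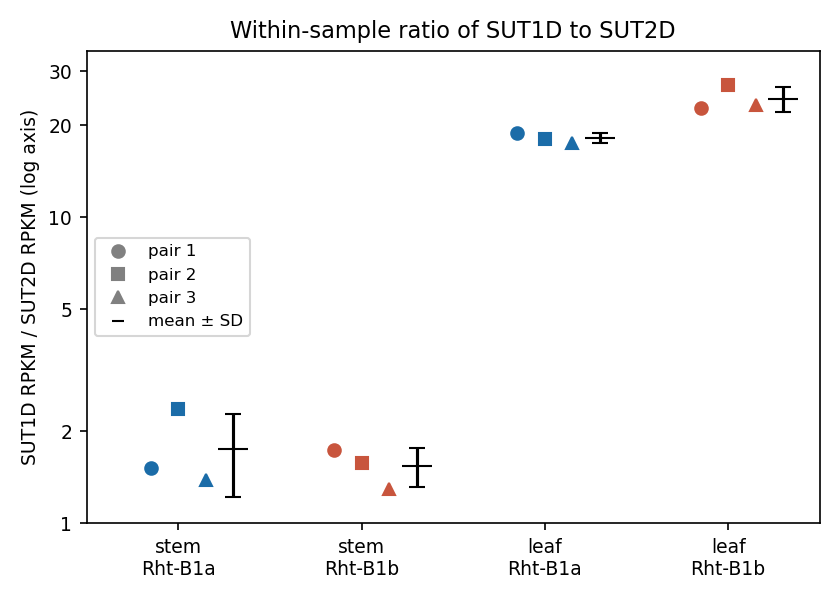
Ratio of SUT1D RPKM to SUT2D RPKM within each tissue sample (log axis), by tissue and line. Points are samples, with 1 symbol per pair, and bars are the mean ± SD of 3 samples. Stems lie at 1.30 to 2.35, *Rht-B1a* leaves at 17.5 to 18.9 and *Rht-B1b* leaves at 22.8 to 26.9.

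The ratio was the steadier measure in leaves. Its coefficient of variation was 3.70% in *Rht-B1a* leaves, against 19.7% for SUT1D and 16.0% for SUT2D, and 9.28% in *Rht-B1b* leaves, against 11.1% and 14.3%. In stems the ratio varied at least as much as either gene, at 30.2% in *Rht-B1a* (SUT1D 28.4%, SUT2D 10.03%) and 14.4% in *Rht-B1b* (SUT1D 12%, SUT2D 4.68%). Both transporters were highest in the leaf samples of pair 1 within each line. In these samples 23 of 25 genes in *Rht-B1a* and 19 of 25 genes in *Rht-B1b* had the highest value of their group. The part of the actin scaling in this spread was not tested.

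The comparison of the lines concerns transcript levels only, since these data hold no measure of sucrose transport or carbon partitioning. It was made with limma within each tissue, with pairs of consecutive tissue sample numbers as a block. In leaves SUT1D was 1.13, 1.44 and 1.26 times as abundant in *Rht-B1b* as in *Rht-B1a* in pairs 1, 2 and 3, and the ranges of the lines overlapped. Its log2 difference was 0.35 (standard error 0.15, 95% interval -0.0090 to 0.70, adjusted p = 0.280, unadjusted p = 0.0546 from limma) and did not pass. The pairs are assumed from the sample numbers. Without the block the standard error was 0.33 (95% interval -0.32 to 1.01, adjusted p = 0.981 from limma). In the same pairs SUT2D was 0.931, 0.964 and 0.949 times as abundant in *Rht-B1b*, with a log2 difference of -0.077 (95% interval -0.41 to 0.25, adjusted p = 0.875 from limma). Of the 25 genes 4.00% passed as higher in *Rht-B1b* leaves.

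For the leaf ratio of SUT1D to SUT2D, all 3 *Rht-B1b* samples lay above all 3 *Rht-B1a* samples. How often ratios of other genes differ in this way was not tested. The mean ratio was 24.3 ± 2.26 in *Rht-B1b* and 18.1 ± 0.670 in *Rht-B1a* leaves (SD, n = 3 each). The log2 ratio was 0.42 higher in *Rht-B1b*, a factor of 1.34 (exact permutation test without the pairs, two-sided, p = 0.1, n = 3 per line), and 3 against 3 samples cannot give a smaller p. It was 0.35 to 0.47 under 8 alternatives. Scaling all genes to SUT2D, an alternative chosen after the data had been seen, puts the same difference into limma with the pairs as a block, where SUT1D had a 95% interval of 0.071 to 0.77, an unadjusted p = 0.0239 and an adjusted p = 0.134. It did not pass.

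In stems neither transporter passed between the lines. The *Rht-B1b* to *Rht-B1a* ratios of SUT1D were 1.01, 0.746 and 1.07 in pairs 1, 2 and 3, and those of SUT2D were 0.881, 1.12 and 1.14. The log2 difference of SUT1D was -0.10 (95% interval -0.54 to 0.34, adjusted p = 0.555 from limma) and that of SUT2D 0.055 (95% interval -0.31 to 0.42, adjusted p = 0.689 from limma). Of the 25 genes 32.0% passed as higher in *Rht-B1b* stems. The median log2 difference over the 25 genes was 0.56, and the transporters had the 23rd and 22nd largest values of the 25. With the geometric mean of 19 genes as the standard the log2 difference was -0.60 for SUT1D (adjusted p = 0.0787 from limma) and -0.44 for SUT2D (adjusted p = 0.0674 from limma). Among these 19 genes are the gene listed as gid1, agp2, starch synthase IIc precursor, starch synthase isoform IV and the ATP synthase subunit. All of these passed as higher in *Rht-B1b* stems. Actin itself had a log2 difference of -0.50 in stems under that standard. The stem ratio of SUT1D to SUT2D overlapped between the lines (log2 difference -0.16, exact permutation test, p = 0.7, n = 3 per line), and without the *Rht-B1a* sample of pair 2 this difference was 0.076.

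**Figure D4:**
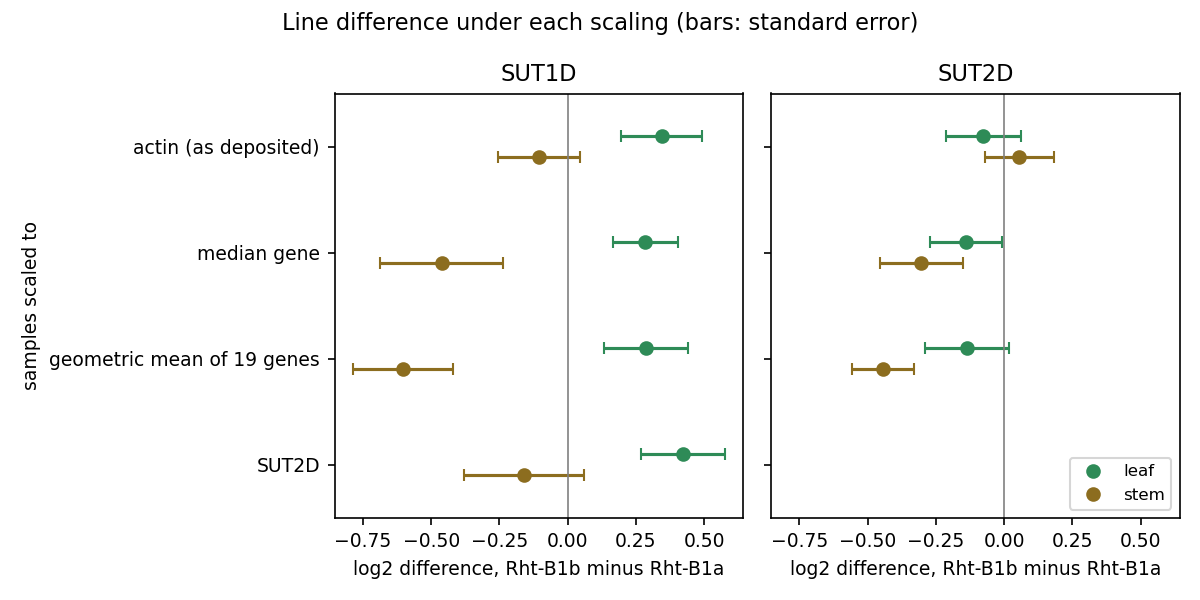
Log2 difference of *Rht-B1b* minus *Rht-B1a* (x axis) for SUT1D and SUT2D in leaves and stems, with actin, the median gene, the geometric mean of 19 genes or, for SUT1D, SUT2D as the standard. Bars are the standard error from limma. The SUT1D difference lies at 0.28 to 0.42 in leaves and at -0.60 to -0.10 in stems, and the stem difference of SUT2D changes sign with the scaling.

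Whether the line difference itself differed between the tissues was tested in 1 fit of the 12 samples. The line difference of SUT1D was 0.45 lower in stems than in leaves on the log2 scale (standard error 0.24, 95% interval of stem minus leaf -0.98 to 0.081, adjusted p = 0.203 from limma) and did not pass. With the geometric mean of 19 genes it was 0.89 lower and passed (adjusted p = 0.0213 from limma), and with the median gene it was 0.75 lower (adjusted p = 0.0807 from limma). Some of the 19 genes had themselves passed as higher in *Rht-B1b* stems. Without pair 2 the stem minus leaf value was -0.20 (adjusted p = 0.489 from limma). Of the 25 genes 3 (12%) passed with a higher value in stems in this test with the actin scaling. For SUT2D the stem minus leaf value was 0.13 (95% interval -0.36 to 0.62, adjusted p = 0.618 from limma). For the log2 ratio of SUT1D to SUT2D, the line difference was 0.58 larger in leaves than in stems (exact permutation of line labels within tissue, chosen after the data had been seen, p = 0.07, n = 12). Over 14 alternatives this p was 0.025 to 0.195. It was 0.04 without the *Rht-B1b* stem sample of pair 1 and 0.025 without the *Rht-B1a* stem sample of pair 3. The difference was 0.35 (exact permutation, p = 0.165) without the *Rht-B1a* stem sample of pair 2 and 0.46 (exact permutation, p = 0.195) without the *Rht-B1b* stem sample of pair 3.

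Ordered by level, the SUT1D means rose from *Rht-B1b* stems through *Rht-B1a* stems and *Rht-B1a* leaves to *Rht-B1b* leaves. The ranges of the lines overlapped within each tissue, and those of stems and leaves did not. For SUT2D the order was *Rht-B1a* stems, *Rht-B1b* stems, *Rht-B1b* leaves and *Rht-B1a* leaves, again with overlap of the lines within each tissue.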

How the data were processed

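RNA of 12 tissue samples, which the submitters list as 24 samples, was sequenced. The authors used ArrayStar (version not given in the sources used here), counting reads identical to a listed wheat gene (100% match) over 50 bp or more, expressed them as RPKM and set actin equal in all samples. The deposited RPKM table has 27 lines, of which 1 repeats SUT2D and was dropped. Its means, standard errors and p-values of the authors were not used. No genome build is stated, so no coordinates are given.

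limma 3.58.1 in R 4.3.3 was run on log2(RPKM + 1) of 25 genes with no filter on low values. With the geometric mean or the median gene as the standard, actin was tested too, which made 26 genes. The study's methods name a paired test of adjacent rows but not the pairs, so adjacent tissue sample numbers stand for pairs 1 to 3 here, as a block in comparisons of the lines. The tissue comparison had no block, since it is not named which leaf and stem samples belong together. Ratios were tested by exact permutation, which did not use the pairs. The tissue and line fits were tested on simulated data. The noise was independent for each gene and sample, so pair effects and deviations shared by genes were not simulated. Named genes were both transporters, rbcS, the 3 genes nearest in profile to each transporter and the 4 largest changes of the carbon list. The members, lists and tests were chosen with earlier results of these data known. Alternatives were other pseudocounts, a filter at a mean of 500 RPKM, other scalings, fits without the block, both tissues in 1 fit and leaving out samples.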

Additional observations from a re-analysis of the deposited data

How the results depend on the processing

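Depth is unknown, and 3 samples per group limit every comparison of the lines. In none of the alternatives did either transporter pass between the lines within a tissue. For SUT2D the leaf minus stem difference passed with a pseudocount of 10 (0.30) or 100 RPKM (0.26), and in *Rht-B1a* alone with 100 RPKM (0.32). It fell below 0 with the geometric mean of 19 genes (-0.0075, and -0.16 in *Rht-B1a*) and with the median gene (-0.21, -0.29 in *Rht-B1a* and -0.13 in *Rht-B1b*). The stem difference of SUT2D between the lines was -0.44 and -0.30 under these scalings, and its stem minus leaf value -0.31 and -0.16, whereas the stem minus leaf value of SUT1D was -0.89 with the geometric mean. Leaving out 1 pair gave stem line differences of -0.20 to 0.056 for SUT1D (0.056 without pair 2) and -0.011 to 0.17 for SUT2D (-0.011 without pair 3). Leaving out 1 sample gave -0.31 to 0.076 for the stem log2 ratio and 0.35 to 0.73 for the leaf minus stem line difference of the ratio. The number of the genes past the threshold between lines in leaves was 1, and 0 with a pseudocount of 10 or 100 RPKM, 2 with the geometric mean, and 1 to 2 without 1 pair. In stems it was 8, and 4 with the geometric mean or the median gene, 14 with both tissues in 1 fit and 0 to 5 without 1 pair. For the difference of the line effect between tissues it was 3, and 5 with the geometric mean and 0 to 1 without 1 pair. The cause of these shifts was not tested. Counts with the geometric mean or the median gene are out of 26 genes, since actin was tested too.

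Deviations from the group means correlated within pairs at 0.53, -0.11 and 0.76 in leaves and -0.36, 0.047 and 0.29 in stems. These mixed values do not settle whether adjacent numbers belong together, and other pairings were not compared. With no replicate block the counts were 1 in leaves, 12 in stems and 2 for the difference between tissues. The leaf difference of SUT1D was then 0.35 with a standard error of 0.33 (adjusted p = 0.981 from limma).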
